A study of Arabidopsis thaliana with 57 samples.

Results

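Rosette leaves of Arabidopsis thaliana Col-0 wild type, the common laboratory accession, were profiled by RNA sequencing after heat, drought and high light had been applied together. The triple-stress group holds 3 end-point libraries of the 57 in the series. It is set against 3 control libraries, and against 3 libraries each of heat with drought, heat with high light, and heat alone. The 3 triple-stress columns of the deposited table do not spell out their stress. They are matched by elimination: they are the end-point columns left once those of the other 8 stresses and the controls were assigned by name. Their replicate numbers are those in the column names.

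Triple-stress plants (Heat-drought-HL_end-point) grew under standard conditions until day 15, were then short of water in a warm chamber (27 °C in the light, 23 °C in the dark) with light of 350 µmol m-2 s-1, and were harvested at 18 days. Heat-drought plants (Heat-drought_end-point) had the same temperatures and were also short of water, with light of 120 µmol m-2 s-1. Plants given heat with high light (Heat-HL_end-point) and heat alone (Heat_end-point) had the same temperatures without the water shortage. Their light was 350 and 120 µmol m-2 s-1. Control plants (Cont_recovery) stayed in a chamber at 22 °C in the light and 18 °C in the dark, with the same 120 µmol m-2 s-1 and 65% relative humidity. All groups had 12 h of light a day and were taken 6 h after lights came on, at the same age of 18 days. The control comes from the recovery setup of the study, since no end-point control is labelled, and every comparison with control uses these 3 libraries. How dry the soil was, and whether it was equally dry in the groups short of water, is not analysed here. Nothing in the labels says that replicates are separate cultures. Each p-value reflects how far libraries spread within groups, pooled over all 57 libraries, and that spread may be technical.

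In drying soil, leaves make abscisic acid. Its receptors bind the hormone and inhibit type 2C protein phosphatases, which frees SnRK2 kinases to close stomata and to activate the ABF transcription factors; genes for dehydrins, late embryogenesis abundant (LEA) proteins and compatible solutes are then transcribed. Heat above the optimum raises chaperones through heat shock factors, and milder warmth speeds elongation growth through PIF4. Excess light calls on photoprotective proteins of the chloroplast, scavengers of reactive oxygen and red or ultraviolet-absorbing flavonoids.

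Replicate 2 of the triple stress stood apart from the other replicates of its group. The deposited values are rlog, a regularized log2 of read counts that pulls genes of low count towards their average, so that differences of such genes are understated. Values below are rlog less the median gene of the same library, unless called rlog or as deposited. For 592 genes the second replicate lay 1 or more away from both of the others, above them for 195 and below them for 397. The same count was 6 for replicate 1 and 14 for replicate 3, and at most 418 in any library of the other 18 groups. Over the 19011 genes tested, which are not independent replicates, its correlation (Pearson's r across genes) was 0.976 with replicate 1 and 0.975 with replicate 3, against 0.997 between replicates 1 and 3 (control pairs, 0.996 to 0.998). Across the 19 tested dehydrin, LEA and RD genes, the median difference from the mean of the controls was 2.67, 0.89 and 2.69 in the triple-stress libraries. It was 3.71, 3.70 and 4.81 in heat-drought and -0.03, 0.13 and 0.32 in heat with high light. The second replicate thus lay between the other triple-stress libraries and heat with high light on this list. What sets it apart was not tested. Results are therefore given with all 3 libraries and, where it matters, without replicate 2.

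Leaf mesophyll markers such as RBCS1A and LHCB1.3 were at rlog 15.1 to 18.5 in the triple-stress libraries and 15.5 to 18.5 in control, and all 6 passed the filter on low values, a mean rlog of 3 or more. Of 4 seed and 6 flower markers, 0 and 2 passed this filter, and none of these genes was above rlog 4.14 in the triple stress or 3.77 in control. The library medians were 8.33, 8.06 and 8.44 in the triple stress, 8.64 to 8.66 in heat-drought, 7.93 to 8.09 in heat with high light, 7.93 to 8.04 in heat and 7.86 to 8.01 in control. Depth per library is unknown, since the files used here hold no read counts.

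**Figure D1:**
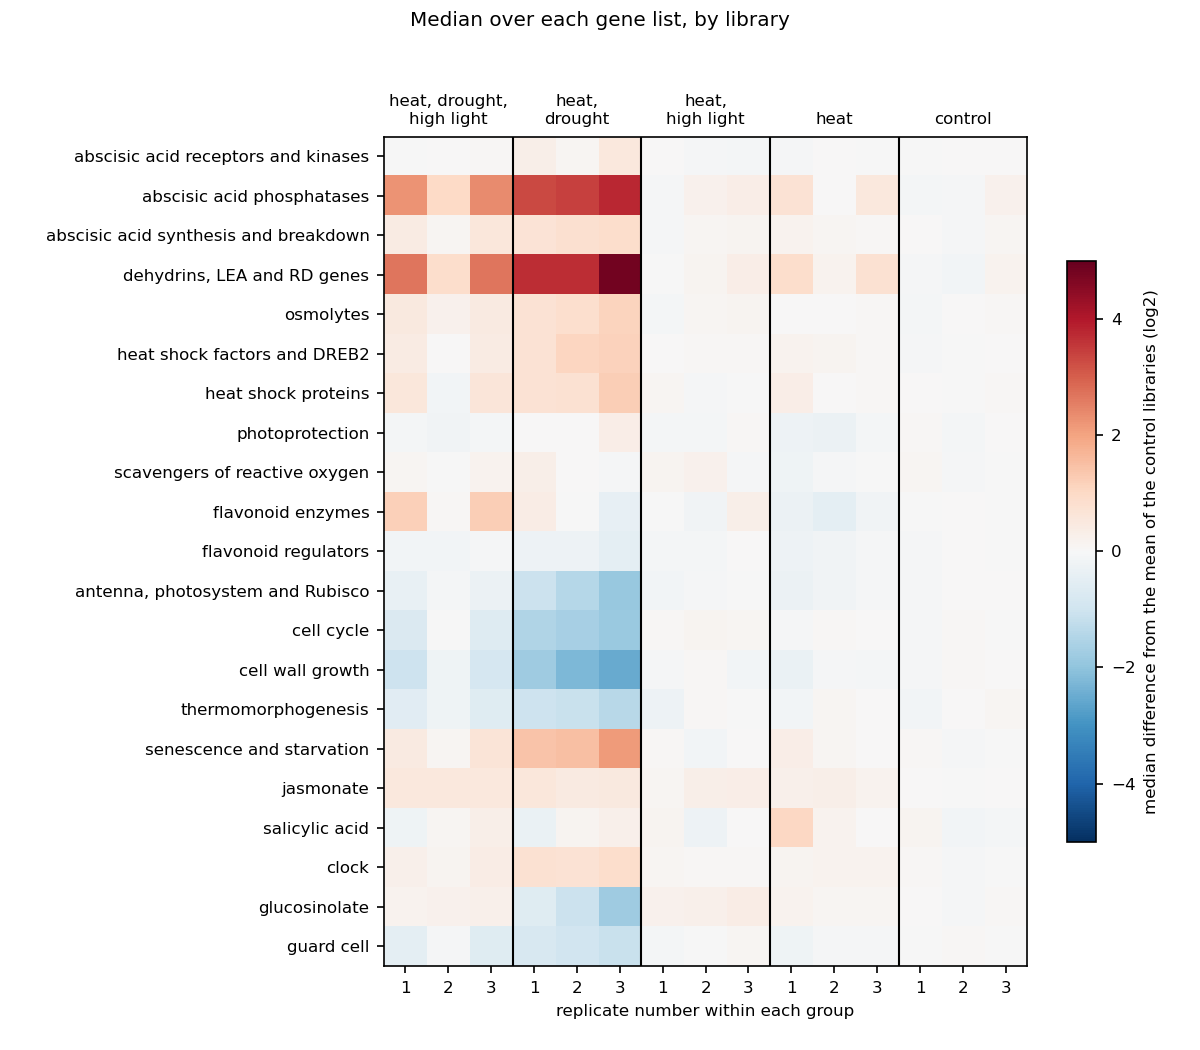
Median log2 difference from the mean of the 3 control libraries over the tested members of each gene list (lines), for every library of 5 groups (columns, replicates 1 to 3 in each). In the triple stress, replicate 2 is paler than replicates 1 and 3 for dehydrin, LEA and RD genes (0.89 against 2.67 and 2.69) and for flavonoid enzymes (0.06 against 1.21 and 1.24), and the 3 heat-drought libraries are stronger than all of them on the dehydrin list.

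Triple stress raised genes of the abscisic acid phosphatases and of dehydration and lowered, relative to the median gene, genes of cell division and wall expansion, while few nuclear photosynthesis genes passed the test in either direction. Of 19011 genes tested, 2743 rose (14.4%) and 5305 fell (27.9%) relative to control at an adjusted p below 0.05 (limma over all 57 libraries, median-centred). Without replicate 2 the counts were 3547 higher (18.7%) and 6460 lower (34.0%), and 98.0% of the rises and 98.5% of the falls called with all libraries were among them. Without replicate 1 they were 1641 and 3319, and without replicate 3 they were 1612 and 2862. When the model was fitted to these 6 libraries alone, 207 rose and 127 fell. The split depends on the centring: as deposited, 9659 genes were higher (50.8%) and 744 lower (3.91%), with the median gene 0.28 above control. With genes in 4 equal classes of mean rlog, this shift was 0.15 in the lowest class and 0.31 to 0.36 in the other 3. Centring each library took off more than 0.28, since the median difference over all genes was -0.08 after it. With a minimum difference of 1 as well, 393 genes were higher (2.07%) and 158 lower (0.831%). In leaf RNA of this kind, fewer cells of a type and less RNA per cell cannot be told apart. Of 355 genes on 21 lists, 334 passed the filter. The members of each list below can be read against the shares of 14.4% higher and 27.9% lower, and against a median difference of -0.08 over all genes tested.

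The type 2C phosphatases of abscisic acid signalling all rose, 7 of 7 tested (median difference 1.76, against 2.32 without replicate 2), and 2 of the 9 listed were too low to test. PP2CA (AT3G11410) stood at 4.34, 2.90 and 4.39 in the triple stress and 1.60, 1.80 and 2.03 in control, a rise of 2.07 ± 0.22 (SE, adjusted p = 1.65e-08). ABI1, one of the first known members, stood at 3.71, 2.96 and 3.81 in the triple stress and 1.90, 1.97 and 2.02 in control. The groups do not overlap for either gene, although replicate 2 is the lowest of the stressed libraries for both. HAI1, a phosphatase induced strongly by abscisic acid, stood at 3.43, -1.12 and 3.27 in the triple stress and -3.06, -3.49 and -2.50 in control, a rise of 4.88 ± 0.79 (adjusted p = 1.4e-05), or 6.37 without replicate 2. Its relative HAI2 rose by 4.28, ABI2 by 1.76, HAB1 by 1.63 and HAB2 by 0.80.

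Relative to the median gene, 7 receptor genes fell, while genes for factors at the end of the pathway rose. Among 16 receptors, SnRK2 kinases and ABF factors, 7 fell and 4 rose, and the 7 that fell were all receptors of the PYR/PYL family. PYL4 (AT2G38310) stood at -1.01, 0.20 and -0.88 in the triple stress and 1.42, 0.91 and 0.82 in control, a fall of 1.61 ± 0.26 (adjusted p = 1.47e-05). Its groups do not overlap, with replicate 2 nearest to control. PYL5 changed by -1.06, PYL1 by -0.96, PYL6 by -0.77, PYL8 by -0.64, PYL2 by -0.56 and PYR1 by -0.47. As deposited, 9 genes of the list were higher and 3 lower, so at most 3 of the 7 falls passed in that form. The 4 that rose were the transcription factors ABF1 to ABF4. ABF3 stood at 3.68, 1.77 and 3.78 in the triple stress and 1.29, 1.35 and 1.52 in control, and ABF2 at 2.78, 1.21 and 2.86 in the triple stress and 0.62, 0.79 and 0.79 in control. Both factors were higher in every stressed library than in every control library, replicate 2 by the smallest margin. The kinase gene OST1, which acts in guard cells, had a difference of 0.26 (adjusted p = 0.0796) and of 0.50 without replicate 2 (adjusted p = 0.000161).

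Genes on both sides of abscisic acid turnover passed: 5 of 11 tested rose and 2 fell, with 7 and 2 without replicate 2, and 9 and 0 as deposited. The falls numbered 1 without stressed replicate 1 or control replicate 2, and 0 without stressed replicate 3 or control replicate 3. NCED3 (AT3G14440), whose enzyme catalyses the limiting step of synthesis in drying leaves, stood at 1.45, -0.48 and 1.42 in the triple stress and -1.71, -1.23 and -0.95 in control, a rise of 2.09 ± 0.34 (adjusted p = 1.68e-05). CYP707A1 and CYP707A2, hydroxylases that break the hormone down, rose by 1.34 and 0.96. BGLU18, a glucosidase that frees abscisic acid from its conjugate, rose by 0.97, and AAO3, the oxidase of the last step, by 0.67. ABA2 and NCED5 were the 2 that fell (-0.29 and -0.27), and both differences were above 0 as deposited (0.07 and 0.10).

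Dehydrin, LEA and RD genes, whose products protect membranes and proteins in drying cells, formed the list with the largest median difference from control of the 21. Of 19 tested, 17 rose and 0 fell (median 2.24, or 2.68 with 16 rises without replicate 2), and 2 of the 21 listed, EM1 and EM6 of the embryo, were too low to test. RD29A (AT5G52310) stood at 5.92, 4.68 and 5.98 in the triple stress and 2.82, 2.88 and 3.35 in control. It rose by 2.51 ± 0.38 (adjusted p = 4.79e-06), the largest rise among genes with a symbol whose groups did not overlap, whose replicates had an SD of 1 or less and whose call held as deposited. COR15A and KIN2, cold-regulated genes of the same response, rose by 2.24 and 2.01. RD29B (AT5G52300), the tandem neighbour of RD29A, stood at 3.76, -1.60 and 3.79 in the triple stress and -2.52, -4.10 and -3.46 in control. The dehydrin gene RAB18 (AT5G66400) stood at 6.38, 1.13 and 6.43 in the triple stress and 1.03, 0.48 and 0.99 in control. For both genes, replicates 1 and 3 were far above every control library and replicate 2 was above the highest control by 1 or less. RD29B rose by 5.34 ± 0.96 (adjusted p = 5.27e-05) with all 3 libraries and by 7.13 without replicate 2. RAB18 rose by 3.82 ± 0.82 (adjusted p = 0.000383), or by 5.57 without it. LEA4-5, LEA7 and TSPO, the last a membrane protein induced by water loss, had rises of 4.52, 4.24 and 4.05, with the same low replicate. COR15B rose with all 3 libraries only (adjusted p = 0.028, against 0.0566 without replicate 2), and HIRD11 and ECP63 did not pass in either.

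The sequence before the gene start is shown for 4 of these genes because they differ in how they rose or fell. RD29A and RD29B were both above control in all 3 stressed libraries, but replicate 2 fell further short of the others for RD29B. The other genes are the phosphatase gene PP2CA and the receptor gene PYL4, which fell. Each is the 250 bases before the start of the gene in RefSeq's annotation of TAIR10.1, written 5′ to 3′ on the strand of the gene. Capitals mark the letters ACGTG, the core of the abscisic acid response element, and CCGAC, the core of the dehydration response element, on either strand. The motifs can overlap each other, and a palindromic CACGTG counts as 2 matches to the first. The stretches lie at chr5:21240467-21240716 on the plus strand (RD29A), chr5:21236771-21237020 on the plus strand (RD29B), chr3:3585851-3586100 on the minus strand (PP2CA) and chr2:16049668-16049917 on the plus strand (PYL4).
RD29A: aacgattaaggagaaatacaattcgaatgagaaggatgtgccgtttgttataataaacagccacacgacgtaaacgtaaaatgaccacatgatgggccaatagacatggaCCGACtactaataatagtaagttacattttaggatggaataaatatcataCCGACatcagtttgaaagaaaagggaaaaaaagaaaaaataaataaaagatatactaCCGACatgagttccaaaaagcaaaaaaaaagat
RD29B: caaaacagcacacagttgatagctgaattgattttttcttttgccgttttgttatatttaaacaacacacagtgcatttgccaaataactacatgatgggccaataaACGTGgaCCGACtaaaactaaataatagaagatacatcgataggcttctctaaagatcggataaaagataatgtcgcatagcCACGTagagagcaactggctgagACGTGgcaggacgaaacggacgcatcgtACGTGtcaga
PP2CA: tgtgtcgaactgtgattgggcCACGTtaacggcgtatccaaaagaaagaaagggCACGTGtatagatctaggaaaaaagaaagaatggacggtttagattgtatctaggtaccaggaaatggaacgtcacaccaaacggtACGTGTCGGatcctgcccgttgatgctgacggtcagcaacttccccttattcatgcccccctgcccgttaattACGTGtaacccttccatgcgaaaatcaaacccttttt
PYL4: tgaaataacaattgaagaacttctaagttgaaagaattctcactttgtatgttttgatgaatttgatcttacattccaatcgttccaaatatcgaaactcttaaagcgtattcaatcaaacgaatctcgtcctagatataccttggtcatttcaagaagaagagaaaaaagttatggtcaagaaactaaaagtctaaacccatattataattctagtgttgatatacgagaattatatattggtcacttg

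The RD29A stretch holds 3 matches to CCGAC and 0 to ACGTG, RD29B 1 and 4, PP2CA 1 and 5, and PYL4 none of either. Bases further upstream, or after the annotated gene start, were not searched. A count of 0 therefore holds for the stretch only, not for the whole promoter. Over the 18916 tested genes with such a stretch, ACGTG was present in 23.4%, CCGAC in 13.1% and the heat shock element GAANNTTC in 9.37%. Among the 12 largest rises named by rule, 8 held ACGTG (66.7%) and 5 held CCGAC (41.7%). Among the 12 largest falls, 3 held ACGTG (25.0%) and 0 held CCGAC. In the dehydrin, LEA and RD list, 13 of 19 held ACGTG and 8 held CCGAC, and 4 of the 7 phosphatase genes held ACGTG. GAANNTTC was in 0 of the 12 rises and 1 of the 12 falls. A match is a description of these letters, not a site of binding.

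**Figure D2:**
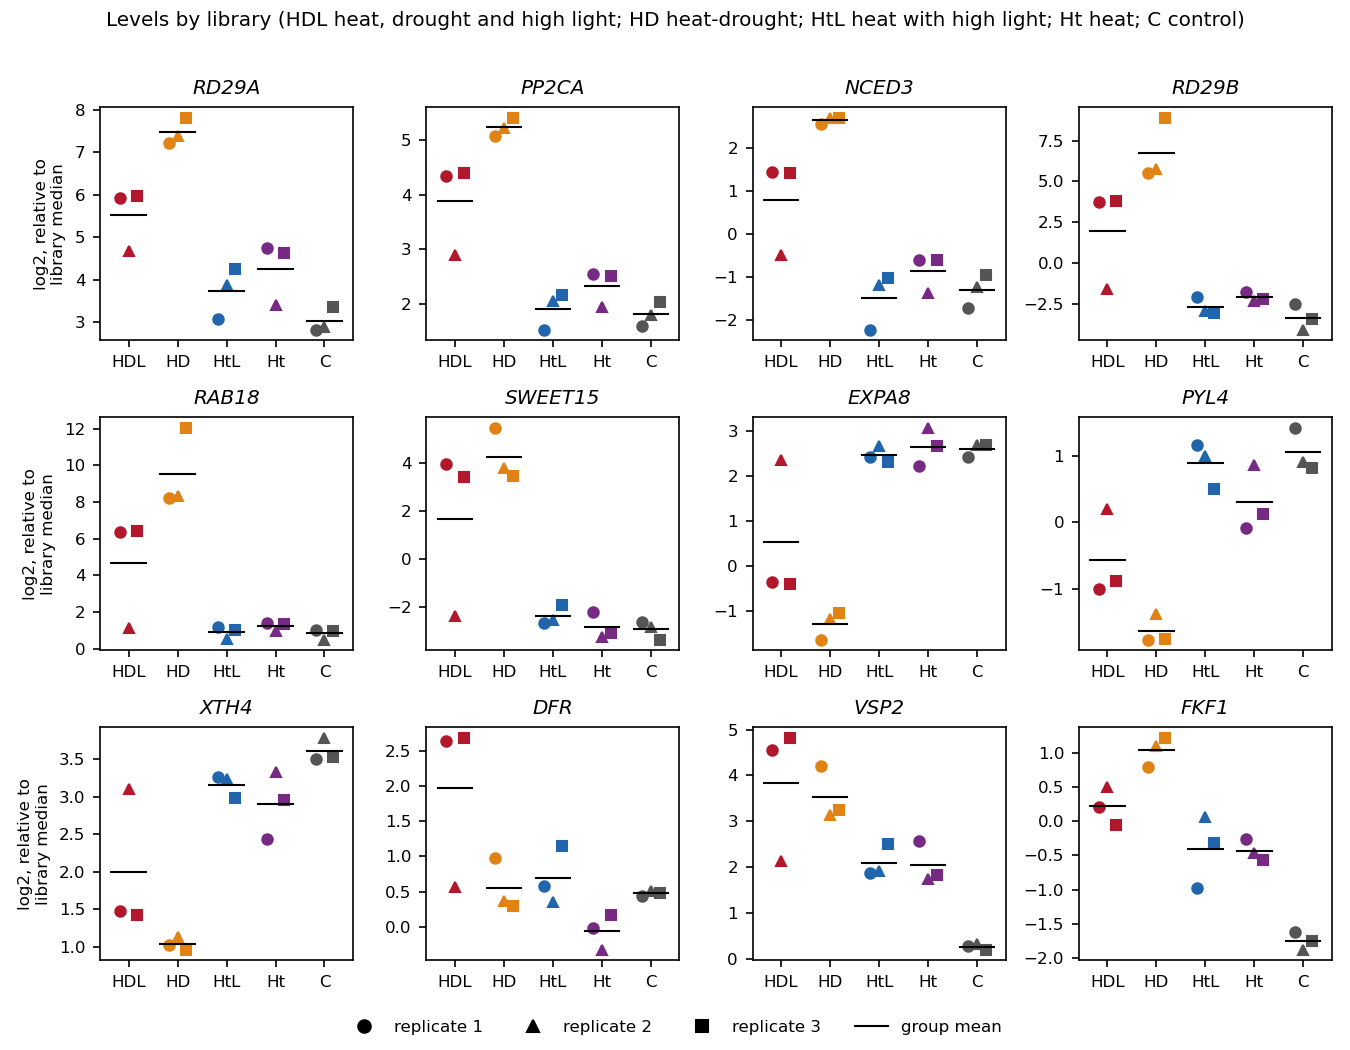
Level of 12 genes in each library, as log2 relative to the library median (vertical axis), in 5 groups (horizontal axis); circles, triangles and squares are replicates 1, 2 and 3 and bars are group means. In the triple stress, the triangle of RD29B, RAB18, SWEET15, EXPA8 and DFR lies much nearer the control level than the other replicates do. It is still above every control for RD29B, RAB18, SWEET15 and DFR, and below every control for EXPA8. RD29A and PP2CA are also above every control in all 3 libraries.

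Genes of compatible solutes mostly rose, 7 of 12 tested with 1 lower (8 and 1 as deposited, 7 and 3 without replicate 2). P5CS1 (AT2G39800), the limiting enzyme of proline synthesis, stood at 6.60, 5.03 and 6.71 in the triple stress and 3.92, 4.32 and 4.67 in control, a rise of 1.81 ± 0.31 (adjusted p = 2.46e-05). ProDH1, the dehydrogenase that degrades proline, fell, at -1.71, -1.40 and -1.46 in the triple stress and -0.32, -0.18 and -0.41 in control (difference -1.22, adjusted p = 0.00264), with no overlap and with replicate 2 level with the others. GOLS2, a galactinol synthase that feeds raffinose synthesis, rose by 2.54, with levels of 2.66, 0.37 and 2.90 in the triple stress and -0.96, -0.74 and 0.01 in control. GOLS1 rose by 0.96 and P5CS2 by 0.88.

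A minority of the chaperone genes passed at 27 °C. Of 16 heat shock protein genes tested, 4 rose and 0 fell (25.0%, against 14.4% of all genes), or 8 without replicate 2, 2 without replicate 1 or replicate 3, and 10 as deposited. HSP70-4, a cytosolic chaperone, stood at 2.71, 0.19 and 2.79 in the triple stress and -0.46, -0.92 and -0.74 in control, a rise of 2.60 ± 0.53 (adjusted p = 0.000222). HSP17.4, HSP90.1 and HSA32 rose by 2.66, 1.59 and 1.09. HSP101, the disaggregase needed for tolerance of severe heat, stood at -0.15, -0.66 and -0.12 in the triple stress and -0.48, -0.48 and -0.67 in control and did not pass (adjusted p = 0.237, or 0.0361 without replicate 2). Of 17 heat shock factor and DREB2 genes, 6 rose and 1 fell, with 9 and 2 without replicate 2 and 13 and 0 as deposited. HSFA6A, a factor that responds to abscisic acid as well as heat, stood at -0.97, -6.17 and -0.04 in the triple stress and -6.12, -5.56 and -5.91 in control. Replicate 2 was thus near the lowest control, and the other replicates were far above every control. HSFA2, the main inducible heat factor, had a difference of 0.07 (adjusted p = 0.764). DREB2A, which links drought and heat signals, rose by 1.36 (adjusted p = 0.0435), DREB2B by 0.83 and the coactivator MBF1C by 1.14.

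Of 13 photoprotection genes tested, 3 rose and 1 fell (4 and 0 as deposited, 3 and 2 without replicate 2, and 1 rise without replicate 3). GPT2 (AT1G61800), a plastid glucose 6-phosphate carrier used in acclimation to light, stood at 0.14, -1.17 and 0.06 in the triple stress and -1.94, -2.91 and -2.72 in control, a rise of 2.20 ± 0.57 (adjusted p = 0.00236). ELIP1, an early light-induced protein, stood at 0.76, -2.28 and 0.37 in the triple stress and -2.10, -1.97 and -2.09 in control, a rise of 1.67 that rests on replicates 1 and 3. Its relative ELIP2 stood at -3.97, -4.08 and -2.87 in the triple stress and -2.20, -3.25 and -2.57 in control, and its difference of -0.97 did not pass (adjusted p = 0.0951). Of 13 scavenger genes, 2 rose and 3 fell (1 and 5 without replicate 2, 6 and 2 as deposited). The rises numbered 1 when any 1 of the 6 libraries was left out. CSD2 and CSD1, the copper and zinc superoxide dismutases of chloroplast and cytosol, both fell. CSD2 stood at 0.61, 1.77 and 0.77 in the triple stress and 3.68, 2.82 and 2.44 in control, a fall of 1.93 ± 0.40 (adjusted p = 0.000235). CSD1 stood at 0.73, 1.46 and 0.95 in the triple stress and 2.92, 2.15 and 1.79 in control, a fall of 1.24 ± 0.31 (adjusted p = 0.00161). Each of the 3 stressed libraries was below each control for both genes. APX2, a peroxidase gene known for its response to excess light, was too low to test.

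Flavonoid enzymes rose in the triple stress, 11 of 16 tested and 0 lower (median 0.84, or 1.23 with 13 rises without replicate 2, 7 without replicate 3, and 16 rises as deposited). DFR (AT5G42800), at the branch to anthocyanins, stood at 2.64, 0.57 and 2.68 in the triple stress and 0.44, 0.50 and 0.49 in control, a rise of 1.49 ± 0.36 (adjusted p = 0.00136) that replicate 2 did not share to the same degree. TT4, the chalcone synthase gene, stood at 4.02, 2.00 and 4.11 in the triple stress and 2.30, 2.35 and 2.39 in control; here replicate 2 lay below all controls, and the rise was 1.03 with it and 1.72 without it. The hydroxylase gene TT7, the glycosyltransferase gene UF3GT, AT4G14090 and the glutathione transferase gene TT19 rose by 1.37, 1.34, 1.32 and 1.25. Among 10 regulators, 2 rose and 4 fell (4 and 1 as deposited), with 1 rise without stressed replicate 1 or 3. MYB75, the anthocyanin activator also called PAP1, stood at 0.98, -1.43 and 1.01 in the triple stress and -1.80, -1.95 and -1.82 in control, a rise of 2.04 ± 0.33 (adjusted p = 1.44e-05), and its partner TT8 rose by 0.66. The repressor MYBL2 was among those that fell (-0.80), in all 3 libraries, as did EGL3 (-0.45); GL3 and MYB12 fell by 0.35 and 0.32, and stood above control as deposited (0.01 and 0.04).

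Few genes of the antenna, the photosystems and Rubisco passed: 3 of 36 fell and 0 rose (median -0.24 centred, 0.13 as deposited), with 1 rise and 5 falls without replicate 2. The centred list median was -0.37, -0.08 and -0.28 in the triple-stress libraries and -0.05, 0.02 and 0.04 in the controls. The direction of the list thus depended on the centring. LHCB2.1, an antenna protein of photosystem II, stood at 7.97, 8.05 and 8.13 in the triple stress and 8.12, 8.24 and 8.26 in control (difference -0.16, adjusted p = 0.733, and 0.21 as deposited). The Rubisco small subunit gene RBCS1A had a difference of -0.82 (adjusted p = 0.106). RBCS1B, LHCB1.4 and LHCB2.4 were the 3 that fell, by 1.23, 1.06 and 0.86. These families have near-identical copies, and each gene's value is uncertain to that extent.

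Cell division genes fell, 17 of 20 tested and 0 higher (85.0%, against 27.9% of all genes), with small differences (median -0.47). The falls numbered 18 without stressed replicate 2, but 8 without replicate 1 and 7 without replicate 3. As deposited 2 of the 20 were lower, and the median was -0.10. CYCB1;1, a mitotic cyclin, stood at -1.86, -1.50 and -1.97 in the triple stress and -1.38, -1.24 and -1.38 in control, a fall of 0.44 ± 0.11 (adjusted p = 0.00177). AUR1 (a mitotic kinase), PCNA1 (the sliding clamp of replication), CYCB1;2 and MCM7 fell by 0.72, 0.69, 0.67 and 0.62. For the whole list, the median difference from the controls was -0.73, 0.00 and -0.64 in the triple-stress libraries, and replicate 2 was level with control.

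Of 21 wall expansion genes tested, 13 fell and 1 rose; as deposited 8 were lower and 4 higher. Without stressed replicate 1 or control replicate 2 no gene of this list rose. EXPA8 (AT2G40610), an expansin that loosens walls, stood at -0.36, 2.35 and -0.41 in the triple stress and 2.41, 2.67 and 2.67 in control, with replicate 2 at the control level and a difference of -2.06 ± 0.37 (adjusted p = 4.91e-05). XTH6 and XTH4, which cut and rejoin xyloglucan, fell by 2.14 and 1.61. XTH4 stood at 1.49, 3.10 and 1.42 in the triple stress and 3.50, 3.78 and 3.53 in control, and so was lower in each stressed library than in each control. GASA6 and FLA9, wall-related genes, fell by 1.76 and 1.68, and EXPA15 rose by 0.38. Of 10 genes of growth in warmth, 6 fell and 1 rose, the photoreceptor gene PHYB (0.25); as deposited 4 were lower and 2 higher. HBI1, a growth-promoting bHLH factor, fell by 1.58 ± 0.29 (adjusted p = 5.76e-05), and the auxin gene IAA29 by 0.97. PIF4 itself stood at 3.22, 3.26 and 3.28 in the triple stress and 3.27, 3.32 and 3.34 in control (adjusted p = 0.751). Guard cell and stomatal lineage genes gave 1 rise and 7 falls among 13, with 3 and 1 as deposited and 4 falls without stressed replicate 3. MYB60, a guard cell factor, fell by 0.80, SPCH, which starts the lineage, by 0.65, and GORK, the potassium channel of closing stomata, rose by 0.57.

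**Figure D3:**
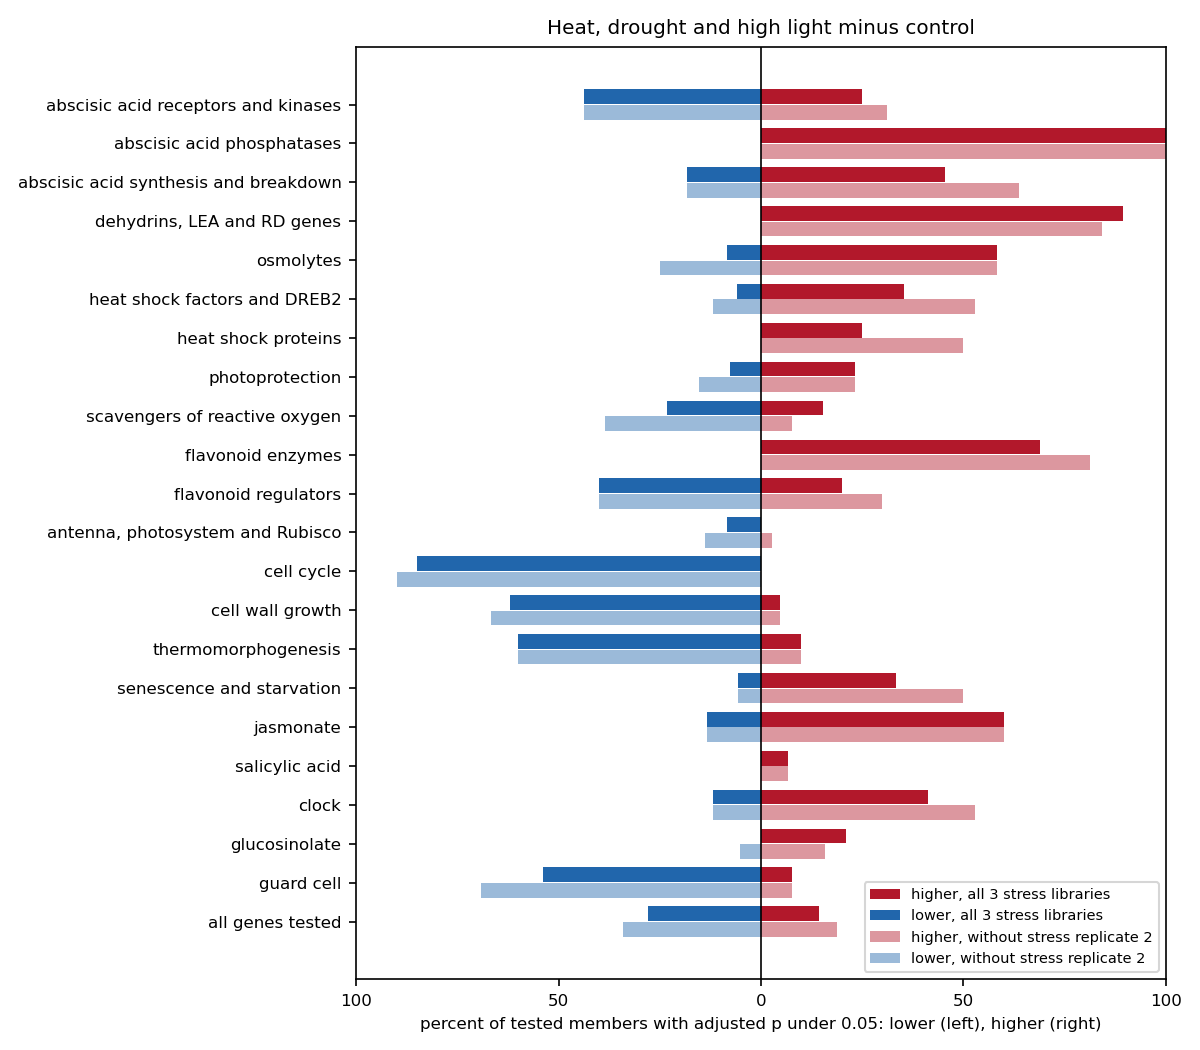
Percent of tested members of each list with an adjusted p below 0.05 in heat, drought and high light minus control (horizontal axis, lower to the left and higher to the right), with all 3 stressed libraries (dark bars) and without replicate 2 (pale bars), median-centred. All 7 phosphatase genes and 17 of 19 dehydrin, LEA and RD genes were higher and 17 of 20 cell cycle genes were lower, beside 14.4% higher and 27.9% lower over all genes tested; the 17 became 2 as deposited, 8 without replicate 1 and 7 without replicate 3.

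Senescence and starvation genes gave 6 rises and 1 fall among 18, with 9 and 1 without replicate 2 and 8 and 1 as deposited. The 1 that fell, and did not pass without replicate 1 or replicate 3, was DIN10 (-1.25), a raffinose synthase family gene that is dark-induced. SWEET15 (AT5G13170), a sugar exporter first known as SAG29, stood at 3.92, -2.37 and 3.41 in the triple stress and -2.59, -2.81 and -3.34 in control, a rise of 4.57 ± 0.77 (adjusted p = 2.36e-05) that lies in replicates 1 and 3. The chlorophyll breakdown genes SGR2, PAO, PPH and NYC1 rose by 1.49, 1.06, 0.81 and 0.51. The regulator NAP stood at -0.35, -1.43 and -0.01 in the triple stress and -0.85, -1.01 and -0.88 in control (adjusted p = 0.348, or 0.0184 without replicate 2). SAG12, a protease gene of late senescence, had a difference of -0.36 (adjusted p = 0.206).

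Of 15 jasmonate genes tested, 9 rose and 2 fell (13 and 0 as deposited, and 1 fall without stressed replicate 1). VSP2 (AT5G24770), a vegetative storage protein gene that marks jasmonate action, stood at 4.55, 2.14 and 4.83 in the triple stress and 0.27, 0.32 and 0.19 in control, a rise of 3.58 ± 0.45 (adjusted p = 3.98e-07). VSP1 stood at -0.16, -1.06 and 0.34 in the triple stress and -1.83, -2.63 and -2.26 in control and rose by 1.95. These 2 closely related genes may share reads, but neither overlaps with control. MYC2, the main jasmonate factor, rose by 0.82, and the biosynthesis genes AOC2 and AOC1 by 0.99 and 0.84. MYC2 was at 1.46, 1.49 and 1.69 in the triple stress and 0.72, 0.72 and 0.75 in control, so replicate 2 did not differ from its group here. JAZ10 and JAZ6, repressors of the pathway, fell by 0.59 and 0.59.

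Of 15 salicylic acid genes, 1 rose, the factor WRKY70 (1.39 ± 0.44, adjusted p = 0.0108). No gene of this list passed without control replicate 3, and 2 rose without control replicate 1. PR1, the classical marker, stood at -3.14, -1.52 and -3.06 in the triple stress and -1.34, -3.11 and -3.59 in control, a spread within each group that is larger than the difference of 0.11. Clock genes gave 7 rises and 2 falls among 17, with 12 and 0 as deposited. FKF1, which peaks towards evening, stood at 0.21, 0.50 and -0.05 in the triple stress and -1.63, -1.88 and -1.76 in control and rose by 1.97. ELF4, another evening gene, stood at 0.18, -0.17 and 0.28 in the triple stress and -1.15, -1.57 and -1.72 in control and rose by 1.57. The morning factor LHY fell by 1.05, while CCA1 did not pass (0.23, adjusted p = 0.523). Replicate 2 was close to the others for FKF1, ELF4 and LHY. In heat alone FKF1 stood at -0.26, -0.47 and -0.58, ELF4 at 0.32, -0.45 and -0.19 and LHY at -1.79, -1.79 and -1.70. LHY was at -1.78, -1.99 and -1.54 in the triple stress and -0.72, -0.64 and -0.80 in control. Of 19 glucosinolate genes, 4 rose and 0 fell (14 and 0 as deposited). The rises numbered 1 without stressed replicate 3 or control replicate 2 and 2 without stressed replicate 1 or control replicates 1 or 3, and without stressed replicate 2 there were 3 rises and 1 fall. With all libraries the rises were BCAT4, MAM1, CYP79F1 and UGT74B1, by 0.71, 0.68, 0.59 and 0.29.

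The largest differences among genes with a symbol that passed centred and as deposited, did not overlap between groups and had an SD of at most 1 in each group include several genes from no list. A further 158 genes that passed both ways were left out for an SD above 1, and 6 higher and 8 lower genes with no symbol were passed over. NAC019, a factor of the abscisic acid and jasmonate responses, stood at -0.85, -1.32 and -0.32 in the triple stress and -3.37, -2.96 and -3.25 in control (difference 2.36 ± 0.53, adjusted p = 0.000571). CHI (AT2G43570), here a chitinase gene and not chalcone isomerase, rose by 2.41, GRP9, a glycine-rich protein gene, by 2.30, and CYP76C2, a cytochrome P450, by 1.92. DR4, a gene first described as repressed by drought, rose by 1.92, with levels of 1.49, 0.65 and 1.15 in the triple stress and -0.85, -0.83 and -0.79 in control. PORA, a protochlorophyllide reductase, fell by 2.21 ± 0.31 (adjusted p = 1.82e-06), with -1.39, 0.20 and -1.53 in the triple stress and 1.34, 1.33 and 1.23 in control. RAV2, a repressor of flowering, fell by 1.94, BZIP61 by 1.82, TBL45 by 1.62 and CRK40, a receptor-like kinase gene, by 1.60. BRS1, a carboxypeptidase of brassinosteroid signalling, fell by 1.52, the purine permease gene PUP18 by 1.51 and XTH16 by 1.50. PUP18 stood at -2.12, -0.33 and -1.23 in the triple stress and 0.54, 0.17 and 0.14 in control, with no overlap.

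Adding high light to heat with drought was addressed by the triple stress minus heat-drought. Whether these groups were equally dry was not tested. Relative to heat-drought, the triple stress had lower phosphatase, dehydrin and senescence genes and higher photosynthesis, cell cycle, wall and glucosinolate genes. Of all genes tested, 7173 were higher (37.7%) and 5684 lower (29.9%); as deposited the counts were 2657 (14.0%) and 10101 (53.1%), with the median gene 0.30 lower in the triple stress. Without replicate 2 of the triple stress they were 5895 (31.0%) and 5041 (26.5%), and without replicate 3 of heat-drought 6261 (32.9%) and 4623 (24.3%). Of the phosphatases, 7 of 7 were lower, also as deposited (median -1.86, or -1.17 without replicate 2). PP2CA stood at 4.34, 2.90 and 4.39 in the triple stress and 5.08, 5.22 and 5.41 in heat-drought, so that replicates 1 and 3 also lay below every heat-drought library. For RAB18 the values were 6.38, 1.13 and 6.43 in the triple stress and 8.22, 8.31 and 12.06 in heat-drought, a difference of -4.88 ± 0.82 (adjusted p = 3.13e-06). Of 19 dehydrin, LEA and RD genes, 1 was higher, COR15B, and 17 were lower (1 and 15 without replicate 2 of the triple stress, 1 and 16 without replicate 3 of heat-drought).

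Among the genes named by rule (221 that passed both ways were left out for an SD above 1, and 5 higher and 3 lower genes without a symbol passed over), the lowest relative to heat-drought was ACS2 (AT1G01480), an ethylene synthesis gene, at -3.02, -4.40 and -3.63 in the triple stress and 2.00, 2.18 and 1.39 in heat-drought (difference -5.54 ± 0.41, adjusted p = 2.95e-13). Rap2.6L, an ethylene response factor, and BAC2, a mitochondrial carrier of basic amino acids, were lower by 5.10 and 5.05. MAPKKK18, a kinase induced by abscisic acid, was lower by 4.52, at -2.39, -3.64 and -1.91 in the triple stress and 1.57, 2.04 and 2.03 in heat-drought. GSTU4, a glutathione transferase gene, MES5, a methyl esterase gene, GPAT2, an acyltransferase gene, and CIPK25, a kinase gene, were lower by 4.38, 4.08, 4.05 and 3.59. Of 18 senescence genes, 1 was higher and 15 were lower (median -1.41), with 0 higher without triple-stress replicate 1 or 3 or heat-drought replicate 3. Of 16 heat shock protein genes 0 were higher and 11 lower, with 14 lower as deposited.

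In the other direction, 34 of 36 antenna, photosystem and Rubisco genes were higher in the triple stress than in heat-drought (median 1.22; 29 as deposited). RBCS2B, a Rubisco small subunit gene, stood at 6.74, 7.50 and 6.87 in the triple stress and 4.91, 4.22 and 4.24 in heat-drought, a difference of 2.58 ± 0.33 (adjusted p = 1.3e-08). Cell cycle genes were higher in 19 of 20 cases (median 1.27), wall genes in 19 of 21 with 1 lower (15 and 1 as deposited), and glucosinolate genes in 18 of 19 (median 1.43, with 18 also as deposited and without replicate 2). MAM3 of glucosinolate synthesis stood at 0.73, 0.99 and 0.73 in the triple stress and -0.29, -1.61 and -1.97 in heat-drought. Of 15 jasmonate genes 6 were higher and 3 lower, but 1 and 4 as deposited. LOX2, a lipoxygenase of jasmonate synthesis, was higher by 2.51, the expansin EXPB3 by 2.49 and the cellulase gene GH9B13 by 2.46. The genes ACD6, LURP1, PCC1 and ECS1 were higher by 3.71, 3.21, 3.12 and 2.63. ACD6, which acts in defence and cell death, stood at 3.08, 4.37 and 3.30 in the triple stress and 0.87, -0.55 and -0.72 in heat-drought, with no overlap.

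Flavonoid enzymes were mostly higher in the triple stress than in heat-drought, 11 of 16 with 1 lower (median 0.66), with 13 and 1 without replicate 2, and 7 and 3 as deposited. DFR stood at 2.64, 0.57 and 2.68 in the triple stress and 0.97, 0.37 and 0.30 in heat-drought, and LDOX, the next enzyme, at 2.13, 0.47 and 2.28 in the triple stress and 0.65, -0.30 and -0.50 in heat-drought. For both genes replicates 1 and 3 of the triple stress were above all heat-drought libraries. The exception that was lower was C4H, an early enzyme shared with lignin (-0.89), and TT4, with 3.38, 3.39 and 3.40 in heat-drought, had a difference of -0.01 (adjusted p = 0.974).

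Adding drought to heat with high light was addressed by the triple stress minus heat with high light. Phosphatase and dehydrin genes were higher in the triple stress and cell cycle genes lower; the comparison shares its triple-stress libraries with that against control. Of all genes tested, 2398 were higher (12.6%) and 4196 lower (22.1%), or 6695 (35.2%) and 909 (4.78%) as deposited, where the median gene stood 0.20 higher. Without replicate 2 the counts were 3355 (17.6%) and 5911 (31.1%), without replicate 1 they were 1105 and 1862, and without replicate 3 they were 931 and 1250. All 7 phosphatases and 16 of 19 dehydrin, LEA and RD genes were higher, none of either lower, and 18 of 20 cell cycle genes were lower (13 as deposited). PP2CA stood at 4.34, 2.90 and 4.39 in the triple stress and 1.52, 2.06 and 2.15 in heat with high light (difference 1.96 ± 0.22, adjusted p = 2.12e-07). NAC019, RD29A, CYP76C2, ABI2, the zinc finger gene ZAT6, the bHLH gene PIL2 and P5CS1 were higher by 2.14, 1.80, 1.77, 1.74, 1.71, 1.69 and 1.61. Among the genes named by rule (160 that passed both ways were left out for an SD above 1, and 3 higher and 5 lower genes without a symbol passed over), CSD2 was the lowest, at 0.61, 1.77 and 0.77 in the triple stress and 3.69, 2.50 and 2.52 in heat with high light. BZIP61, PYL4, the brassinosteroid-responsive growth gene EXO, HBI1, ENODL17, XTH16 and PDLP3, a plasmodesmata protein gene, were lower by 1.70, 1.45, 1.41, 1.40, 1.35, 1.33 and 1.3. Of 16 flavonoid enzymes, 12 were higher (median 0.80; 14 as deposited), but 3 without triple-stress replicate 1 and 2 without replicate 3. No glucosinolate or salicylic acid gene passed in either direction (1 higher on each list as deposited, and 1 glucosinolate gene lower without replicate 2). When the model was fitted to these 6 libraries alone, no gene passed (limma, lowest adjusted p 0.139), while 2183 were higher and 3593 lower at an unadjusted p below 0.05.

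The test of the difference itself asked whether the effect of drought in heat was the same with and without high light (triple stress minus heat with high light, less heat-drought minus heat). If the effects of drought and of high light in heat simply added up, this difference would be 0. That holds only where both groups short of water were equally dry, which was not tested. Of the genes tested, 5023 lay above that sum (26.4%) and 4209 below it (22.1%), or 1513 (7.96%) and 8772 (46.1%) as deposited, with the median gene at -0.34. Without replicate 2 of the triple stress they were 3742 (19.7%) and 3447 (18.1%), and without replicate 3 of heat-drought 3949 (20.8%) and 2982 (15.7%). For the phosphatases the median drought effect was 1.74 in heat with high light and 3.24 in heat, and 7 of 7 lay below the sum, or 4 of 7 without replicate 2 of the triple stress, where the effect with high light was 2.38. For dehydrin, LEA and RD genes the median effect was 1.60 in heat with high light and 3.30 in heat, with 15 of 19 below the sum and 1 above, or 8 and 1 without replicate 2 and 12 and 0 without replicate 3 of heat-drought. Without replicate 1 of heat with high light 0 lay above. For antenna, photosystem and Rubisco genes it was -0.19 in heat with high light and -1.27 in heat, with 21 of 36 above the sum and 0 below. This count was 12 without replicate 2 of the triple stress, 8 without replicate 3 of heat-drought and 13 as deposited.

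Cell cycle and glucosinolate genes gave equal counts in these alternatives: 19 of 20 and 18 of 19 lay above the sum with all libraries, without replicate 2 of the triple stress, and without replicate 3 of heat-drought. As deposited the counts were 17 and 17. The median effect of drought on glucosinolate genes was -0.04 in heat with high light and -1.20 in heat, and on cell cycle genes -0.62 in heat with high light and -1.62 in heat. Among single genes, GH9B13 lay 2.54 above the sum, at 1.51, 1.37 and 1.26 in the triple stress, -0.24, -1.36 and -1.65 in heat-drought, 1.49, 0.76 and 0.80 in heat with high light and 1.54, 0.76 and 0.97 in heat. Here only heat-drought stood low, and replicate 2 of the triple stress was level with the others. Among the genes named by rule (192 that passed both ways were left out for an SD above 1, and 7 higher and 2 lower genes without a symbol passed over), ACS2 lay furthest below the sum (-5.09 ± 0.57, adjusted p = 6.61e-08). It was at -5.21, -4.98 and -4.77 in heat with high light and -4.33, -4.58 and -4.70 in heat. Heat-drought stood far above these, while every triple-stress library was above heat with high light by a smaller margin. Flavonoid enzymes had median drought effects of 0.80 in heat with high light and 0.39 in heat; 6 of 16 lay above the sum and 1 below, or 9 and 1 without replicate 2, 2 and 1 without replicate 3 of heat-drought, and 1 and 3 as deposited. They were 3 and 2 without triple-stress replicate 1 and 2 and 3 without replicate 3, and 3 lay above without replicate 2 of heat with high light or replicate 3 of heat.

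**Figure D4:**
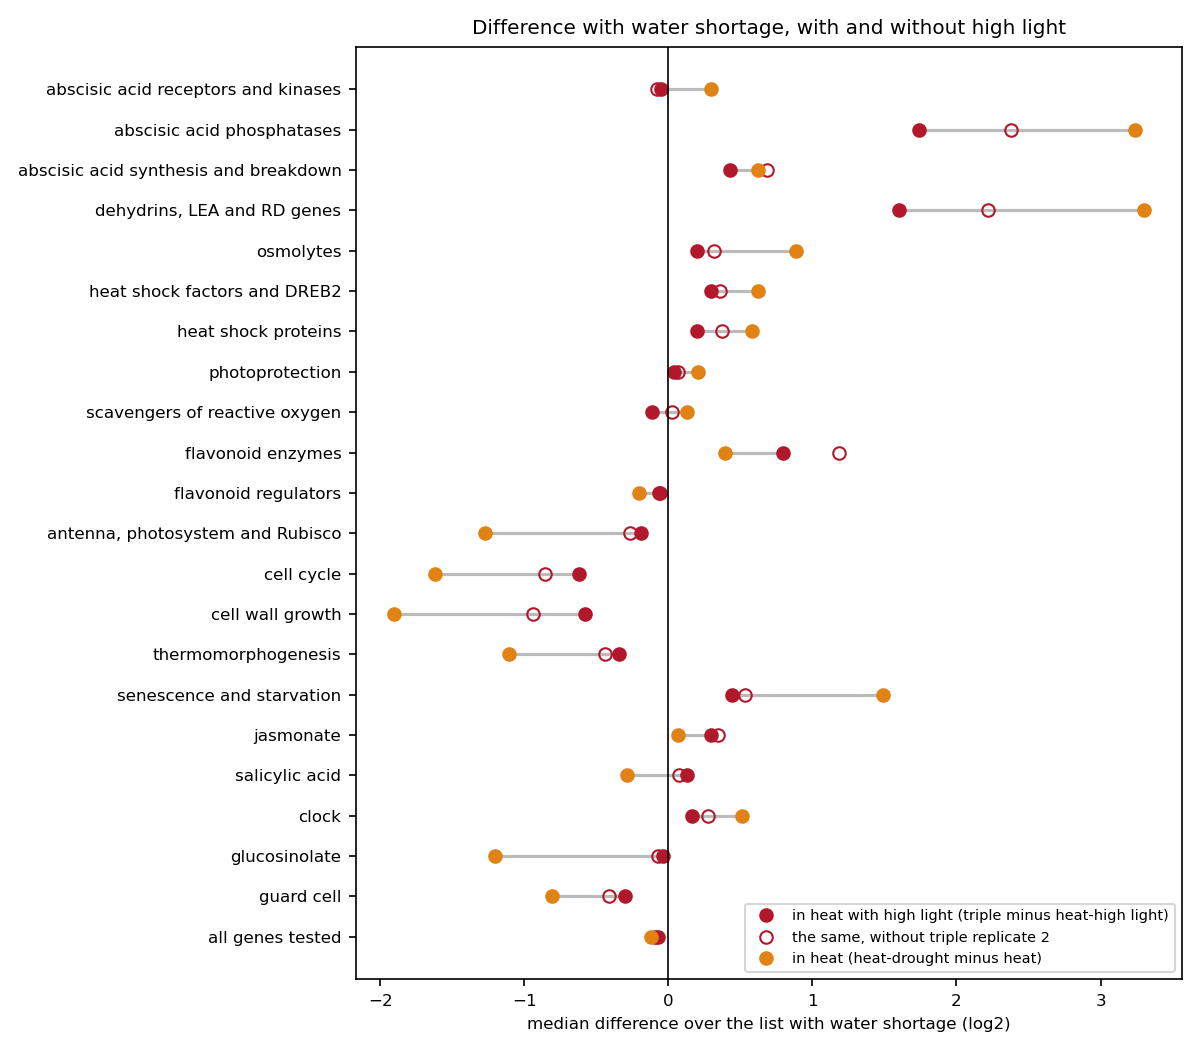
Median difference with water shortage over each gene list (horizontal axis, log2, median-centred) in heat with high light (triple stress minus heat with high light, filled red), the same without replicate 2 of the triple stress (open red), and in heat (heat-drought minus heat, orange). The red points lie nearer 0 than the orange ones for phosphatases (1.74 against 3.24) and cell cycle genes (-0.62 against -1.62), also without replicate 2, and flavonoid enzymes are placed the other way (0.80 against 0.39); as deposited, 1 flavonoid enzyme lay above the sum and 3 below.

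After 3 days under standard conditions, the libraries matched by elimination to the triple stress in the recovery setup (stress from day 12) stood near control on most lists. The median difference from the controls was -0.08, -0.03 and -0.07 for the phosphatases and -0.01, -0.07 and -0.18 for cell cycle genes in these recovery libraries. RD29A stood at 3.45, 2.71 and 2.33 in recovery, beside 5.92, 4.68 and 5.98 at the end of stress and 2.82, 2.88 and 3.35 in control. On the salicylic acid list replicate 3 of recovery had a median of 1.77, against 0.00 and 0.03 in replicates 1 and 2. Its medians were also 0.31 for senescence and starvation, 0.31 for jasmonate and -0.31 for antenna, photosystem and Rubisco genes. For 337 genes this library lay 1 or more away from both others of its group, against 2 genes each for replicates 1 and 2. No test was made on the recovery libraries here.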

How the data were processed

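RNA sequencing of rosette leaves gave 57 samples in 19 groups of 3. Reads were trimmed with Trimmomatic, aligned to TAIR10 with STAR, counted with featureCounts and transformed with DESeq2, per the submitters' processing notes; versions and strand setting are not given in the sources used here. The authors deposited 1 table of rlog values, which are regularized log2 counts, for 28775 genes, of which 2657 are listed at 0 in every library. It gives no read totals, so depth and counting precision are unknown. Of 57 columns, 51 were assigned by name and 6 by elimination. The members and gene lists were chosen with earlier results of these data known.

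Each library was centred on its median over the 19011 genes with a mean rlog of at least 3. Groups were compared with limma 3.58.1 (R 4.3.3; 1 mean per group over all 57 libraries, moderated two-sided test with trend and robust settings, Benjamini-Hochberg over all genes tested, threshold 0.05); the code was tested on simulated data. Errors with ± are SE from this model, with n = 3 libraries a group. They use the spread pooled over all 57 libraries, so they do not show a wide spread within 1 group in full. Named genes are the 12 largest rises and falls against control (8 in the other comparisons) among genes with a symbol that pass centred and as deposited, with an SD of at most 1 within groups and, except for the interaction, no overlap between groups, up to 5 list members each way, and members each list is known for. The remaining receptor, phosphatase and dehydrin genes, OST1, LDOX, C4H, MAM3 and the CSD1, LHY and MYC2 levels were added after their values were seen. Symbols and gene starts come from RefSeq (28009 IDs matched), and the 250 bases before each start were read from its TAIR10.1 genome; using the genome for this was decided after seeing the files. Alternatives were other centrings, filters, sample sets and variance models, a replicate block, a minimum difference, and leaving out each library. Soil water was not analysed here.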

Additional observations from a re-analysis of the deposited data

Results flagged for a closer look

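The genes here are the 8 largest each way, by the test of the difference between 2 drought effects, among those with a symbol and an SD of at most 1 in all 4 groups; 192 genes that passed were left out for a larger SD, and 7 above 0 and 2 below it for want of a symbol. For these 16, the effect of water shortage in heat with high light (triple stress minus heat with high light) was set against that in heat (heat-drought minus heat). Passing the limma test of the difference itself, centred and as deposited, at an adjusted p below 0.05 was also a condition of the choice. The difference was above 0 for 8 genes: 4.14 for PCC1, 3.96 for ACD6, 3.00 for ECS1, 2.61 for EXPB3, 2.54 for GH9B13, 2.52 for CNGC11, 2.39 for PME5 and 2.36 for TIR. It was below 0 for the other 8: -5.09 for ACS2, -4.79 for BAC2, -4.41 for Rap2.6L, -4.08 for MAPKKK18, -3.80 for MES5, -3.62 for GPAT2, -3.53 for MSL4 and -3.49 for CIPK25.

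For PCC1 the effect of water shortage was 0.20 in heat with high light and -3.95 in heat, and for ACD6 it was 0.55 in heat with high light and -3.41 in heat. For BAC2, the mitochondrial carrier, the effect was 1.54 in heat with high light and 6.33 in heat, and for MES5 it was 1.10 in heat with high light and 4.90 in heat. Without replicate 2 of the triple stress each of the 16 genes kept its direction and passed, with 3.68 for PCC1, 3.57 for ACD6, -4.73 for ACS2 and -4.24 for BAC2. Effects of the 2 kinds share no library.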

How the results depend on the processing

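Counts of genes higher and lower than control moved with several settings: they were 9659 and 744 as deposited, against 2743 and 5305 when centred. With the model fitted to these 6 libraries only they were 207 and 127, and with a minimum difference of 1 they were 393 and 158. Without a filter on low values 11460 were lower. Leaving out each library in turn gave 1612 to 3547 higher and 2862 to 6460 lower, with the fewest without triple-stress replicate 3 (without replicate 1, 1641 and 3319). The median shift as deposited, 0.28, ranged between 0.22 and 0.37 over the same omissions.

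Against heat-drought the counts were 2657 and 10101 as deposited, 4660 and 3413 with the 6 libraries only, 1042 and 885 with a minimum difference of 1, and 11415 higher without the filter. Leaving out libraries gave 5895 to 7341 higher and 4623 to 5852 lower. Against heat with high light they were 6695 and 909 as deposited, 0 and 0 with the 6 libraries only (limma; 2183 and 3593 at an unadjusted p below 0.05), 320 and 98 with the minimum difference, and 10655 lower without the filter. Leaving out libraries gave 931 to 3355 higher and 1250 to 5911 lower, the fewest without triple-stress replicate 3 (without replicate 1, 1105 and 1862). For the interaction they were 1513 above and 8772 below as deposited, and 888 and 726 with the minimum difference. With the 12 libraries of its groups only, 2527 lay below, and without the filter 3062 lay above. Leaving out libraries gave 3742 to 5438 above and 2982 to 4619 below. The cause of these moves was not tested, beyond the construction of each setting.

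Of the differences of named genes under all settings, 2847 kept their direction and side of the threshold, 234 no longer passed, 6 newly passed and 12 changed sign. Those 12 comprise, as deposited, ABA2 (0.073), NCED5 (0.10), GL3 (0.013), MYB12 (0.043), LHCB2.1 (0.21, and 0.038 with quantile normalization), PIF4 (0.30) and SAG12 (0.0023). PR1 was -0.42 without triple-stress replicate 2, -0.11 without control replicate 2 and -0.35 without control replicate 3, and it ranged between -0.42 and 0.78 (without control replicate 1) over all such omissions. CCA1 was -0.079 without triple-stress replicate 3, and up to 0.77 without replicate 2.

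Replicate numbers did not consistently pair the samples. Same-numbered triple-stress and control libraries had deviations from their group means that correlated at -0.11, 0.18 and -0.0016 across genes. With heat-drought these values were -0.12, 0.20 and 0.27, with heat and high light -0.051, 0.21 and 0.087, and with heat 0.21, 0.50 and -0.095. Replicate 2 was thus positive with replicate 2 of each group, and the reason was not tested. Unlike numbers also correlated, at 0.46 for triple-stress replicate 3 with heat replicate 1. With the replicate block 2839 genes were higher and 5418 lower than control, 7229 and 5752 against heat-drought, 2532 and 4387 against heat with high light, and 5139 above and 4314 below in the interaction.

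Depth is unknown, and rlog values understate differences of genes of low count. The control comes from the recovery setup, so in the comparison with control the setup and the stress cannot be told apart. The other comparisons contrast the means of end-point groups alone, though their spread is estimated over all 57 libraries.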
